A study of Mus musculus with 6 samples.

Results

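Beige adipocytes are heat-producing fat cells that appear within white fat, above all in the cold. A small panel of genes is commonly used to label them, although Slc36a2 and P2rx5 also mark brown adipocytes. The 9 panel genes followed here were the transcription regulators Tbx1, Cited1 and Hoxc9, the membrane proteins Slc36a2, P2rx5, Tmem26 and Tnfrsf9, and Ear2 and Epsti1, whose products act in innate immunity. They were taken by symbol from a table of 54532 genes, and each of the 9 was found once. Their RNA was measured by sequencing of iWAT, the inguinal depot of white adipose tissue under the skin of the groin, from old mice that had been in the cold for 7 days. Estrogen-treated animals gave 3 libraries and vehicle-treated animals 3, and both groups had the same cold exposure. The sources used here give no strain, sex, age in months, form of estrogen or dose, and no library from mice kept warm was part of the comparison. Whether the 6 libraries stem from 6 animals is not said in the labels, and the p-values below cover only the variation among these libraries, part of which may be technical.

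Beige adipocytes share a thermogenic programme with brown adipocytes, which burns fuel through the uncoupling protein Ucp1, while they arise within white depots and keep the positional identity of those depots. The panel genes are known chiefly as labels of such cells or their precursors in mouse subcutaneous fat, and most of them are not thermogenic effectors themselves. Several have other sources in fat tissue: Tnfrsf9 is a costimulatory receptor of activated T cells, Ear2 is a ribonuclease of eosinophils and other myeloid cells, and Epsti1 is induced by interferon. In whole tissue, fewer cells of a type and less RNA per cell cannot be told apart.

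Total counts ran from 16046601 to 20736771 per library, and the detection floor, set at 3 counts, lay at 0.145 to 0.187 CPM, the count after scaling all libraries to 1 size. The 11 adipocyte markers were abundant in all libraries, with Adipoq at 1322, 1214 and 2206 CPM in estrogen replicates 1 to 3, against 1026, 838 and 1200.0 CPM in vehicle replicates 1 to 3. Other cell types differed between libraries. The 10 skeletal muscle markers summed to 8199 CPM in estrogen replicate 1, against 3.40 to 72.1 CPM in the other 5 libraries. The 9 B cell markers summed to 194.5 and 127.5 CPM in estrogen replicates 1 and 3, against 4.73 to 7.81 CPM in the remaining 4. Estrogen replicate 3 also held the least macrophage signal (10 markers, 440.4 CPM, against 899 to 2106 CPM elsewhere) and the most adipocyte signal (51650 CPM, against 22950 to 32790 CPM).

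The panel genes differed widely in abundance. Per kilobase of exon, Slc36a2 was the most abundant, at 106.5 ± 18.4 CPM per kilobase (SD over the 6 libraries). P2rx5 followed at 11.8 ± 3.70, Hoxc9 at 8.45 ± 0.735, Ear2 at 7.75 ± 6.0, Epsti1 at 5.90 ± 2.17 and Tbx1 at 2.70 ± 0.577 CPM per kilobase. The step down from Slc36a2 was larger than the spread of either gene, whereas P2rx5, Hoxc9, Ear2 and Epsti1 were neighbours whose spreads overlapped. Tmem26 (0.419 ± 0.248), Tnfrsf9 (0.381 ± 0.190) and Cited1 (0.168 ± 0.0608 CPM per kilobase) lay lowest, and Tmem26 and Tnfrsf9 did not differ beyond their spread. Slc36a2 alone made up most of the panel's counts, so a summed panel level would be a Slc36a2 level.

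**Figure D1:**
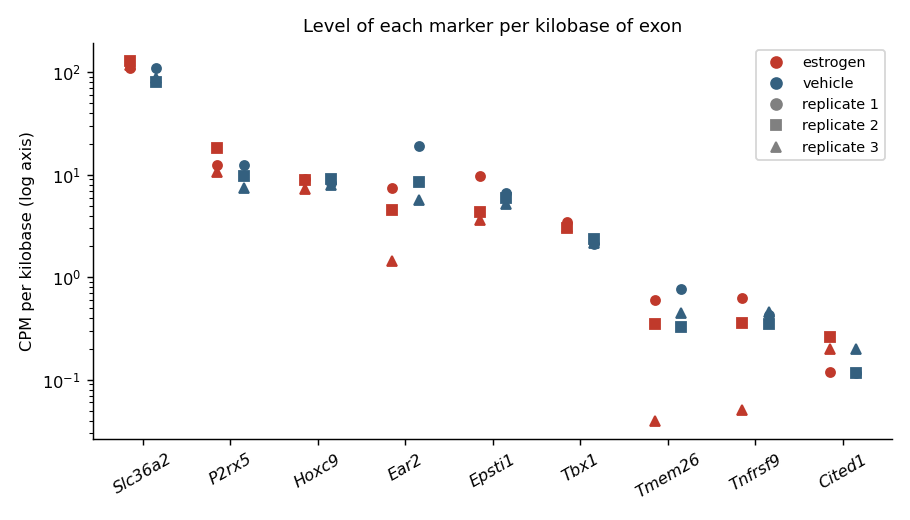
Level of each panel gene in CPM per kilobase of exon (log axis), with 1 point per library, estrogen in red left of vehicle in blue, and the point shape giving the replicate. Slc36a2 stands above the rest, and Tmem26 and Tnfrsf9 each have 1 estrogen library, replicate 3, far under the other 5.

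Estrogen libraries were compared with vehicle libraries by edgeR's quasi-likelihood test across 15591 genes that passed a filter on low counts. Of the 9 panel genes 8 passed that filter, and Cited1 did not. After Benjamini-Hochberg adjustment over all tested genes, 0 of the 8 passed a threshold of 0.05, where 0 of all genes did (0.00%). At an unadjusted p under 0.05 stood 1 panel gene, Tbx1, against 3185 of all genes (20.4%). DESeq2 gave no adjusted p for Tnfrsf9 and called 0 of the other tested panel genes, against 854 of 14026 genes with an adjusted p (6.09%). The estrogen libraries lay wholly above the vehicle libraries for 2 panel genes, Tbx1 and Slc36a2, as they did for 12.8% of all tested genes, and wholly below for 0, as for 14.7% of all tested genes. Over both directions that is 2 of 8, against 27.5% of all tested genes. The 8 log2 fold changes split 4 to 4 around a median of -0.0029, against a median of 0.0025 over all tested genes.

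Tbx1, a T-box transcription factor best known for pharyngeal and heart development and used as a beige adipocyte label, had 12.2, 10.7 and 10.9 CPM in estrogen replicates 1 to 3, against 7.37, 8.30 and 7.55 CPM in vehicle replicates 1 to 3. Each estrogen library was above each vehicle library, and both groups were tight. The log2 fold change was 0.54 ± 0.16 (SE), or 1.46-fold, with a 95% interval of 0.17 to 0.92 and an unadjusted p of 0.0106 by edgeR, and it did not pass after adjustment (adjusted p = 0.207). By DESeq2 the adjusted p was 0.0559. With each library left out in turn the log2 fold change stayed between 0.47 and 0.60, and the unadjusted p between 0.0168 and 0.0398. It ranked 776 by p among the 15591 genes, so many genes separated the groups more clearly.

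Tbx1 lies on chromosome 16 (18580979 to 18590671, minus strand, mm10), and its exons share no base with those of another gene in the annotation used here. The 250 bases before its start are shown because it is the panel gene that separated the groups most clearly, beside those of Ear2, the one with the largest change in the other direction. Both are from RefSeq on GRCm38.p6, at chr16:18590672-18590921 (minus strand) and chr14:44102404-44102653 (plus strand), 5′ to 3′, with CpG dinucleotides in capitals.
Tbx1: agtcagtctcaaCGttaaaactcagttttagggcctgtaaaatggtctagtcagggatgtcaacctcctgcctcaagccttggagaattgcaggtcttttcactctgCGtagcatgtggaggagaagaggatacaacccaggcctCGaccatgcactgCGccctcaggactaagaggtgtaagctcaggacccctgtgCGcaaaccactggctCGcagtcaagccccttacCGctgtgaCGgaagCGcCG
Ear2: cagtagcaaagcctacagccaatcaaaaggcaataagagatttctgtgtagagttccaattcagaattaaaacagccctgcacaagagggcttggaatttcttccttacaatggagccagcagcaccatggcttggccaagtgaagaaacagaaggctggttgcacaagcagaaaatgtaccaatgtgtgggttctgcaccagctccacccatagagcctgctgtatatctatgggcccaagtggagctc
The stretch before Tbx1 holds 10 CpG dinucleotides and that before Ear2 holds 0, against a median of 6 over 32851 promoters of the same length. At least as many as before Tbx1 occurred in 37.8% of those promoters. The table gives Tbx1 a further start at 18588899, and the 250 bases before that one hold 17 CpG dinucleotides, a number reached in 23.5% of promoters. Of the 9 genes, 6 had promoters in that table, 10 in all, counting alternative starts. None of these 10, read from 250 bases before to 50 bases after the start on both strands, held the estrogen response element GGTCANNNTGACC, the site of estrogen receptor dimers, which occurred in 0.0700% of all promoters. They held no interferon response core (GAAANNGAAA, 3.44% of all promoters), no cAMP response element (TGACGTCA, 1.79%) and no direct repeat of the kind bound by PPAR dimers (AGGTCANAGGTCA, 0.0396%), which says only that these letters are not in these windows.

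Cited1, a coactivator that binds CREB-binding protein, was barely detected. It had 4, 7 and 5 counts in estrogen replicates 1 to 3, against 4, 4 and 8 counts in vehicle replicates 1 to 3. The groups overlapped, with 16 counts in each. A fit without the low-count filter gave a log2 fold change of 0.38 with a 95% interval of -1.24 to 2.0, so a change of less than about that size was not detectable at this depth.

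Hoxc9, a homeobox transcription factor of posterior body position, had 22.3, 21.4 and 17.8 CPM in estrogen replicates 1 to 3, against 20.1, 22.2 and 19.3 CPM in vehicle replicates 1 to 3. The groups overlapped almost fully, at 20.5 ± 2.38 CPM and 20.5 ± 1.52 CPM (SD, n = 3 each). Its log2 fold change was 0.00060 ± 0.14 (SE), with a 95% interval of -0.32 to 0.32 (edgeR, adjusted p = 0.999), and its sign changed with the scaling. Hoxc9 was the panel gene with the narrowest range over the 6 libraries, 1.25-fold from lowest to highest, against 1.61-fold for Slc36a2 and 1.65-fold for Tbx1.

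Slc36a2, a proton-coupled transporter of small amino acids that marks the surface of brown and beige adipocytes, had 362 CPM, 423 CPM and 385 CPM in estrogen replicates 1 to 3, against 358, 263 and 289.5 CPM in vehicle replicates 1 to 3. The estrogen libraries were all above the vehicle libraries, although estrogen replicate 1 and vehicle replicate 1 nearly touched. The log2 fold change was 0.36 ± 0.16 (SE), with a 95% interval of -0.02 to 0.74 (edgeR, unadjusted p = 0.0583, adjusted p = 0.255). It ran from 0.27 without vehicle replicate 2 to 0.50 without vehicle replicate 1. Of 3154 stretches of 100 bases in its transcripts, 38 also occur in transcripts of Slc36a1, so only a small part of its count could be shared with that gene.

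P2rx5, an ATP-gated cation channel that is likewise used as a surface label of brown and beige adipocytes, had 29.7 CPM, 43.9 CPM and 25.6 CPM in estrogen replicates 1 to 3, against 29.6, 23.4 and 17.6 CPM in vehicle replicates 1 to 3. Estrogen replicate 2 was the highest library, and the groups overlapped. Estrogen over vehicle, it had a log2 fold change of 0.49 ± 0.26 (SE), with a 95% interval of -0.11 to 1.09 (edgeR, unadjusted p = 0.0955, adjusted p = 0.307). Without estrogen replicate 2 it was 0.24, and without vehicle replicate 1 it was 0.69.

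Tmem26, a transmembrane protein used to sort beige precursors, had 3.16, 1.83 and 0.209 CPM in estrogen replicates 1 to 3, against 4.01, 1.72 and 2.34 CPM in vehicle replicates 1 to 3. Estrogen replicate 3 had 3 counts, at the detection floor, while the other 5 libraries had 28 to 79 counts and the other two estrogen libraries lay within the vehicle range. The log2 fold change of -0.61 ± 0.76 (SE; 95% interval -2.39 to 1.17, edgeR adjusted p = 0.660) became -0.10 with estrogen replicate 3 left out and -0.21 with vehicle replicate 1 left out, and it was -1.38 when estrogen replicate 1 was left out.

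Tnfrsf9, also called CD137, showed the same library order at its low end, with 1.71, 0.982 and 0.139 CPM in estrogen replicates 1 to 3, against 1.17, 0.961 and 1.26 CPM in vehicle replicates 1 to 3. Estrogen replicate 3 had 2 counts and estrogen replicate 1 the highest value of the 6. Its log2 fold change was -0.23 ± 0.68 (SE; 95% interval -1.82 to 1.36, edgeR adjusted p = 0.868), and it was 0.26 without estrogen replicate 3 and -0.99 without estrogen replicate 1. The 11 T and NK cell markers were also highest in estrogen replicate 1, at a summed 77.3 CPM, with 9.82 and 17.6 CPM in estrogen replicates 2 and 3 and 7.27, 7.59 and 10.8 CPM in vehicle replicates 1 to 3. Their part in the Tnfrsf9 level was not tested. The ligand gene Tnfsf9 had 28, 18 and 7 counts in estrogen replicates 1 to 3 and 37, 55 and 28 counts in vehicle replicates 1 to 3 (log2 fold change -0.89 ± 0.49 SE, edgeR unadjusted p = 0.114).

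**Figure D2:**
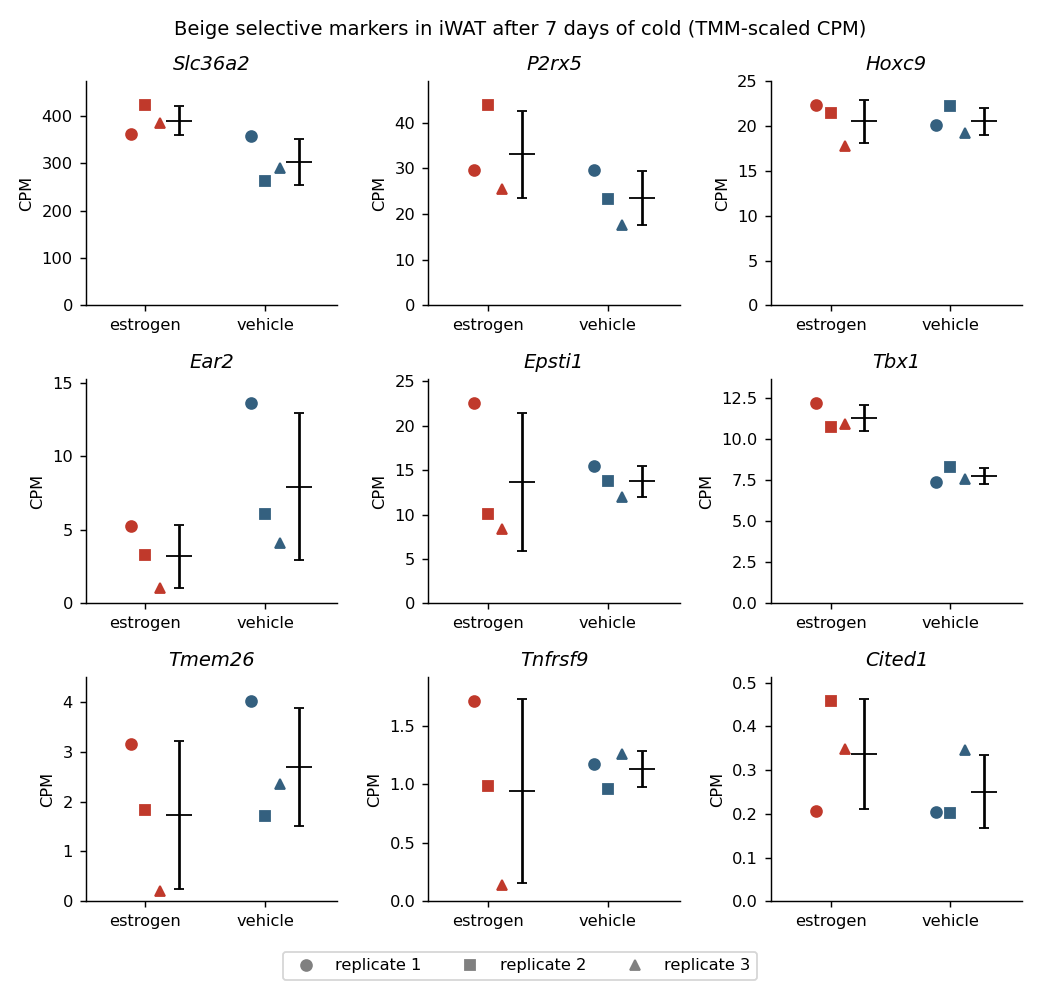
TMM-scaled CPM of the 9 panel genes on linear axes from 0, estrogen libraries (red) left of vehicle libraries (blue), with the replicate given by the point shape and the mean ± SD (n = 3) in black. Tbx1 and Slc36a2 show no overlap of the groups, and Hoxc9 is level. Estrogen replicate 3 (triangle) is the lowest estrogen library for P2rx5, Hoxc9, Ear2, Epsti1, Tmem26 and Tnfrsf9.

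Ear2, which encodes an eosinophil-associated ribonuclease, had 5.29, 3.27 and 1.04 CPM in estrogen replicates 1 to 3, against 13.6, 6.07 and 4.12 CPM in vehicle replicates 1 to 3. Vehicle replicate 1 was the highest and estrogen replicate 3 the lowest, a 13.0-fold range, and estrogen replicate 1 overlapped the vehicle group. Its log2 fold change was -1.29 ± 0.64 (SE), or 2.45-fold lower with estrogen, with a 95% interval of -2.79 to 0.21 (edgeR, unadjusted p = 0.0809, adjusted p = 0.285). It was -0.66 without vehicle replicate 1, -0.88 without estrogen replicate 3 and -1.87 without estrogen replicate 1.

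Eosinophil, macrophage and neutrophil markers lay in the same direction as Ear2. The 7 eosinophil markers summed to 3.32, 3.86 and 2.02 CPM in estrogen replicates 1 to 3. In vehicle replicates 1 to 3 they summed to 22.8, 9.87 and 5.60 CPM. The vehicle libraries were in the same order as for Ear2, and the estrogen libraries were not. Of these 7 markers 3 could be tested, all with negative log2 fold changes: Alox15, a lipoxygenase that macrophages express too, at -2.12 ± 0.41, the sialic acid receptor gene Siglecf at -2.35 ± 0.73 and the eotaxin receptor gene Ccr3 at -2.34 ± 1.0 (SE). None passed by edgeR, and DESeq2 called Alox15 (adjusted p = 0.00188) and Siglecf (adjusted p = 0.0470). The granule peroxidase gene Epx had 0 counts in all 6 libraries. All 10 macrophage markers were negative, at a median log2 fold change of -1.09. The 5 tested of 6 neutrophil markers were also all negative, at a median of -1.28. The 6 neutrophil markers summed to 161.4 CPM in vehicle replicate 1, the highest library for Ear2 too, against 25.8 to 35.3 CPM elsewhere. The part of these cells in the Ear2 level was not tested.

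Counting of Ear2 carries some uncertainty, since 86 of 620 stretches of 100 bases in its transcript (13.9%) also occur in Ear10 or the pseudogene Ear-ps2. Both of these were listed with 0 counts in all libraries, and Ear1, another family member, had 1 count in all. How reads with several matches were counted is not given in the sources used here.

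Epsti1, an interferon-induced gene of epithelial and stromal cells, had 22.6, 10.02 and 8.36 CPM in estrogen replicates 1 to 3, against 15.5, 13.8 and 12.02 CPM in vehicle replicates 1 to 3. Estrogen replicate 1 was above and the other two estrogen libraries were below all vehicle libraries. The log2 fold change was therefore near 0, at -0.0065 ± 0.37 (SE; 95% interval -0.87 to 0.86, edgeR adjusted p = 0.994), and it was -0.59 without estrogen replicate 1 (unadjusted p = 0.0252, adjusted p = 0.213) and 0.25 without estrogen replicate 3.

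A list of 23 other interferon-stimulated genes had 22 negative log2 fold changes at a median of -0.50, with 0 past the adjusted threshold. DESeq2 called 1 as lower, against 468 of 14026 genes with an adjusted p. At an unadjusted p under 0.05, 3 were lower (10.9% of all tested genes). The 3 were the antiviral synthetase gene Oas2 (-1.16 ± 0.36), the interferon signalling factor gene Irf9 (-0.48 ± 0.17) and Ifit2 (-0.44 ± 0.19, SE). These genes did not show the high value of estrogen replicate 1, where the list summed to 423 CPM, against 408 and 344 CPM in estrogen replicates 2 and 3 and 751, 443 and 442 CPM in vehicle replicates 1 to 3. Estrogen replicate 1 was instead the library with the most muscle, T cell and B cell signal, whose part in the Epsti1 level was not tested.

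**Figure D3:**
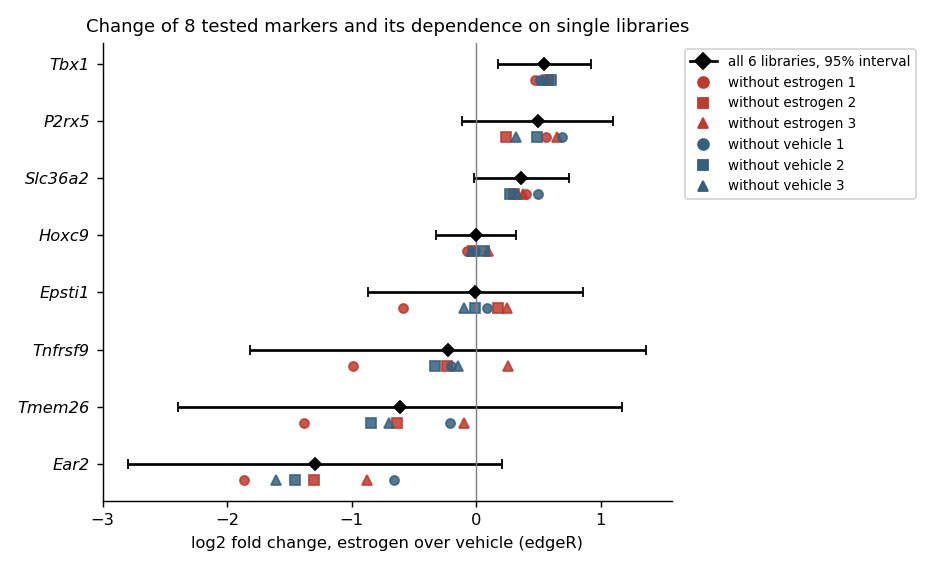
Log2 fold change, estrogen over vehicle, of the 8 tested panel genes (black diamonds, with 95% intervals from edgeR, 3 against 3 libraries) and, under each, its value with 1 library left out (red for an estrogen and blue for a vehicle library left out). Tbx1 is the 1 gene whose interval excludes 0, and its values lie between 0.47 and 0.60, whereas those of Tmem26, Tnfrsf9, Ear2 and Epsti1 spread widely.

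The panel came apart in estrogen replicate 3. That library had nearly no Ucp1, at 10.2 CPM, with 695.5 CPM and 1754 CPM in estrogen replicates 1 and 2 and 907, 589 and 333 CPM in vehicle replicates 1 to 3. Fabp3 (0.279 CPM, elsewhere 28.2 to 124.6 CPM), Cox7a1 (5.85 CPM, elsewhere 22.8 to 139.9 CPM), Slc27a2, Cpt1b, Otop1 and Gk were also lowest there. Of the other shared thermogenic genes, Cox8b, Ppara, Prdm16 and Ebf2 were lowest there too. Adrb3, Ppargc1a and Zfp516 were highest there, and Cidea, Dio2, Elovl3 and Pank1 lay within the range of the other libraries. Most of these were named after their values were seen. Relative to the mean log2 CPM of the other 5 libraries, Ucp1 was 6.15 lower in estrogen replicate 3, and 0.0128% of tested genes were lower still on that measure. The other thermogenic genes set on this scale, Cidea and Elovl3, were at -0.72 and 0.15, where 17.3% and 61.1% of tested genes were lower. Tmem26 was at -3.03, Tnfrsf9 at -2.39 and Ear2 at -2.33 on the same scale, where 1.10%, 2.56% and 2.73% of tested genes were lower. Epsti1 was at -0.76, Hoxc9 at -0.24 and P2rx5 at -0.11, well inside the bulk of genes. Slc36a2 (0.20) and Tbx1 (0.27) lay above the other libraries, as did Adipoq (0.996). These values describe 1 library and carry no test.

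Estrogen replicate 2 was the library with the most Ucp1. Because the low values of estrogen replicate 3 enter a mean of the other 5, estrogen replicate 2 was set against the mean of the remaining 4 libraries, a choice made after seeing the data. Ucp1 was 1.57 above that mean on the log2 scale, and Cidea, a lipid droplet protein gene of thermogenic adipocytes, 1.39 above it. P2rx5 was at 0.84, above 97.1% of tested genes, Slc36a2 at 0.42 and Tbx1 at 0.31. Hoxc9 was at 0.03, Tnfrsf9 at -0.32, Tmem26 at -0.52, Epsti1 at -0.63 and Ear2 at -0.97, where 3.63% of tested genes were lower than Ear2. These values likewise describe 1 library and carry no test.

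**Figure D4:**
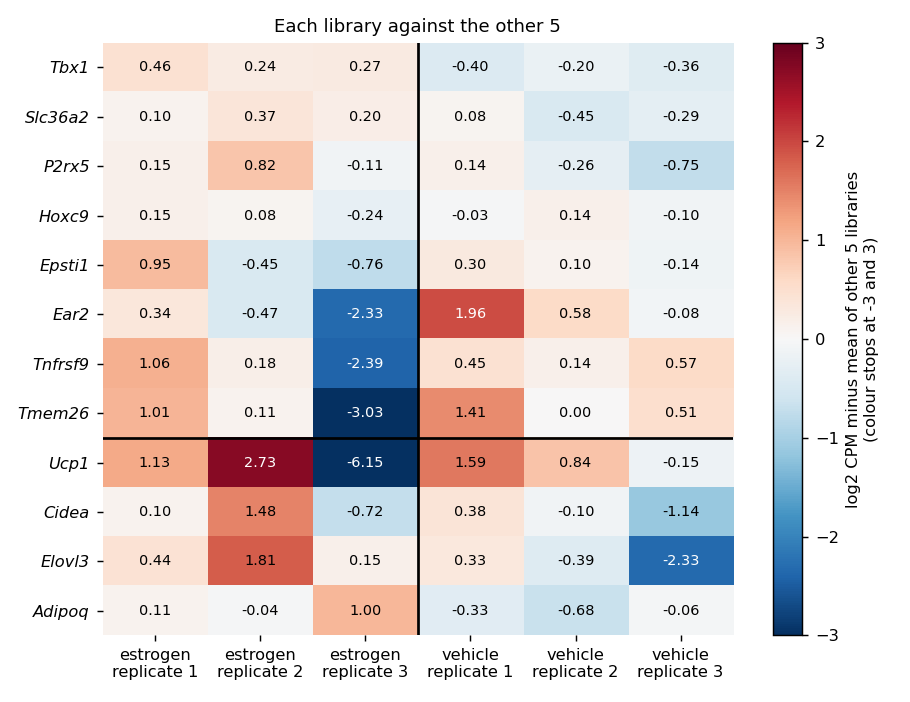
Log2 CPM of each gene (rows) in each library (columns, estrogen left of vehicle) minus its mean in the other 5 libraries, with panel genes above the line and Ucp1, Cidea, Elovl3 and Adipoq under it. In estrogen replicate 3, Ucp1 (-6.15), Tmem26 (-3.03), Tnfrsf9 (-2.39) and Ear2 (-2.33) are far below the other libraries, while Tbx1 (0.27) and Slc36a2 (0.20) are not.

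Of the 11 adipocyte markers 10 had positive log2 fold changes, at a median of 0.54, and 0 passed by edgeR. At an unadjusted p under 0.05, 2 were higher (9.49% of all tested genes). DESeq2 called 2 as higher, against 386 of 14026 genes with an adjusted p. These were the insulin-responsive glucose transporter gene Slc2a4 (0.87 ± 0.18 SE, DESeq2 adjusted p = 0.00252) and the lipase gene Pnpla2 (0.85 ± 0.27 SE, DESeq2 adjusted p = 0.0274). Each panel gene was therefore also expressed relative to the mean log2 CPM of these 11 markers in the same library, a scale chosen after seeing the data. The mean log2 CPM of the markers was 10.96 in estrogen libraries and 10.48 in vehicle libraries, so every gene is moved by the same -0.475 on this scale, and the median of all tested genes lay at -0.478. On it the difference, estrogen minus vehicle, was 0.06 for Tbx1, -0.10 for Slc36a2 and 0.0079 for P2rx5, with overlapping groups for all 3. The two-sided exact permutation p was 0.900 for Tbx1, 0.700 for Slc36a2 and 1 for P2rx5, and 3 against 3 libraries cannot go below 0.100. The permutation tests a difference of 0, whereas an unchanged gene lies near -0.475, so it cannot show whether these genes changed. Ear2 was at -1.84, Tmem26 at -1.54, Tnfrsf9 at -1.12, Epsti1 at -0.62 and Hoxc9 at -0.48 on that scale, and the groups overlapped for these too. The value of Hoxc9 lies at that common shift, and those of Tbx1, Slc36a2 and P2rx5 lie above it. For Tbx1, Slc36a2 and P2rx5 the difference, again measured from 0, was smaller than the SD between libraries of either group on this scale. For Hoxc9, Epsti1, Tmem26 and Tnfrsf9 it was smaller than the SD of the estrogen libraries only. Since an unchanged gene lies near -0.475, this comparison cannot show whether a gene changed either.

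**Figure D5:**
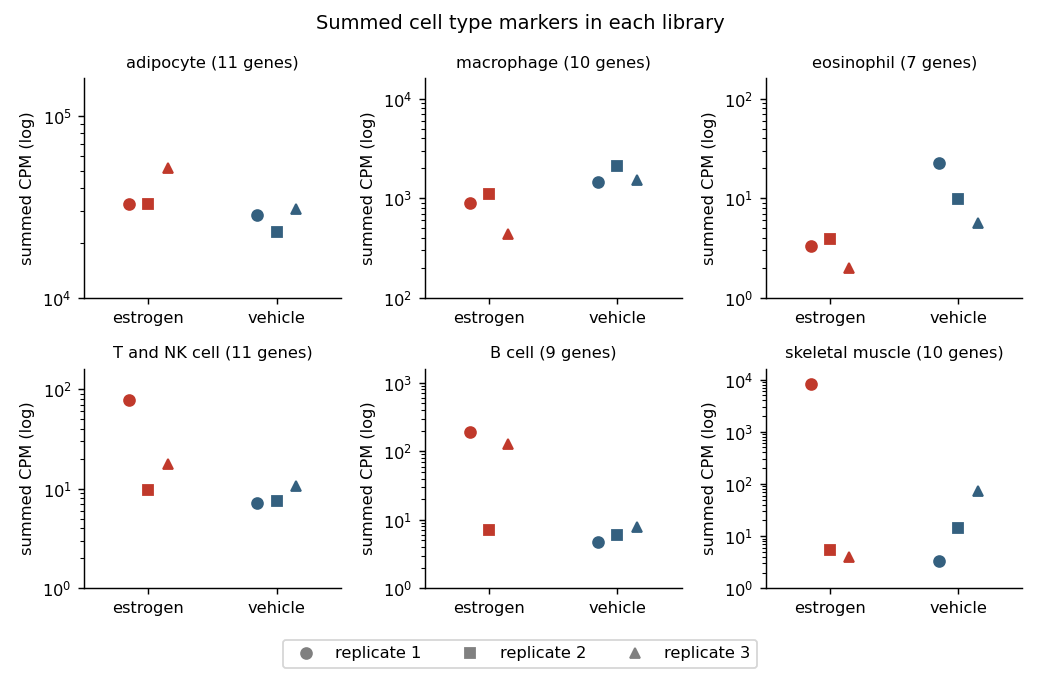
Summed CPM of fixed marker lists (log axes), estrogen libraries left of vehicle libraries, replicate by point shape. Skeletal muscle stands out in estrogen replicate 1 (8199 CPM), B cells in estrogen replicates 1 and 3, and all 3 estrogen libraries lie below all 3 vehicle libraries for macrophage and eosinophil markers.

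Other genes tied to beige, brown or white identity gave a frame for the panel. Of 9 further beige-associated genes, 0 passed the adjusted threshold and 4 were higher at an unadjusted p under 0.05 (9.49% of all tested genes), with a median log2 fold change of -0.15. Slc27a1, a fatty acid transport protein gene, had 1505, 1554 and 3897 CPM in estrogen replicates 1 to 3, against 915, 521 and 863 CPM in vehicle replicates 1 to 3, a log2 fold change of 1.597 ± 0.43 (SE) that DESeq2 called (adjusted p = 0.00734). Mtus1, a microtubule-associated gene, was at 0.50 ± 0.16 and the carbonic anhydrase gene Car4 at 0.68 ± 0.27 (SE). Estrogen replicate 3, with almost no Ucp1, held the highest value of Slc27a1, Mtus1 and Car4. The fourth was the potassium channel gene Kcnk3, named after its values were seen, with 120.1, 257.8 and 129.3 CPM in estrogen replicates 1 to 3, against 119.9, 91.0 and 65.7 CPM in vehicle replicates 1 to 3. Its log2 fold change was 0.88 ± 0.35 (SE), and it was highest in estrogen replicate 2. Of the 5 genes with negative log2 fold changes, Cd40, Klhl13, Shox2 and Fgf21 were lowest in estrogen replicate 3. Sp100, the last of them, was lowest in estrogen replicate 2. These 5 were likewise named after their values were seen.

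Among 18 shared thermogenic genes 16 were positive, at a median of 0.35, and 0 were called by either tool. At an unadjusted p under 0.05, 1 was higher (9.49% of all tested genes), the coenzyme A synthesis gene Pank1 (0.81 ± 0.34 SE). Ucp1 was at 0.43 ± 1.25, Cidea at 0.59 ± 0.50 and Prdm16, a regulator that maintains the thermogenic fate, at -0.09 ± 0.17 (SE). Classical brown adipocyte markers were low where they are most specific. Zic1, a transcription factor gene of interscapular brown fat, had 1, 0 and 4 counts in estrogen replicates 1 to 3, against 1, 5 and 1 counts in vehicle replicates 1 to 3. Lhx8, a homeobox gene of that lineage, had a log2 fold change of 0.16 ± 0.48 (SE). Of the 6 tested brown markers 2 were higher at an unadjusted p under 0.05 (9.49% of all tested genes), Mpzl2 (1.06 ± 0.35) and the oxoprolinase gene Oplah (0.52 ± 0.18, SE), and 0 were called by either tool.

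White adipocyte markers showed no common direction. Of 7 tested, 3 were positive and 4 negative, and 0 had an unadjusted p under 0.05. Hoxc8, a neighbour of Hoxc9, had 59.4, 64.3 and 73.0 CPM in estrogen replicates 1 to 3, against 48.5, 58.8 and 53.1 CPM in vehicle replicates 1 to 3 (log2 fold change 0.29 ± 0.13 SE, unadjusted p = 0.0590 by edgeR). The adipokine gene Lep was at -0.73 ± 0.55 and Hoxc10, a posterior homeobox gene linked to white fat, at -0.07 ± 0.15 (SE). Tcf21, a white precursor gene, had 0 counts in all 6 libraries.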

How the data were processed

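RNA from 6 iWAT samples was sequenced. The deposited table holds unnormalized read counts of each gene, with gene lengths. Reads were aligned with HISAT2 and counted with featureCounts on mm10, per the submitters' processing notes; the sources used here do not give versions, strand setting or the treatment of multiply mapping reads. Groups and replicate numbers came from the sample titles; the deposited columns are numbered differently, and those of title replicate 2 share no number. No pair of libraries of 1 group agreed within sampling noise (chi-square per degree of freedom 41.7 to 88.6). Counts were scaled by trimmed mean of M values (TMM), filtered with filterByExpr (15591 genes kept) and tested with edgeR 4.0.16 quasi-likelihood F tests (R 4.3.3), p-values being adjusted by Benjamini-Hochberg over these genes. The test was checked on simulated data. DESeq2 1.42.0 and limma 3.58.1 were alternatives. CPM per kilobase used the deposited lengths, which equalled the exon lengths of GENCODE M21 for all 9 genes. Log2 CPM values used a prior count of 2. Intervals use the test's degrees of freedom. The genes and lists were chosen with earlier results of these data known. Named genes were all 9 panel genes, a fixed set of 12 others and up to 3 of smallest p per list. Kcnk3, 5 further beige-associated genes and most of the shared thermogenic genes named for estrogen replicate 3 were added after their values were seen.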

Additional observations from a re-analysis of the deposited data

How the results depend on the processing

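Panel genes past an adjusted p of 0.05 numbered 0 under every setting run, including DESeq2, which called 854 genes in all, against 0 by edgeR. Panel genes at an unadjusted p under 0.05 numbered 1 in the main test, where 3185 of all 15591 tested genes did so. They numbered 0 with library totals only (3570 of all genes), 2 by limma-voom (3043), 3 by DESeq2 (3393) and 3 with a replicate block (3305). Without the low-count filter they numbered 2, against 4048 of 27593 genes. With a library left out they numbered 1 to 3, against 1423 to 3212 of 15591 genes. With library totals only, Tbx1 was at 0.38 (edgeR unadjusted p = 0.0695). Library totals moved the median of all genes by -0.167, and relative to that Tbx1 was at 0.55. Correlations of deviations were -0.123, 0.163 and 0.289 for replicates 1 to 3, and -0.355 to 0.168 for the other pairings. They do not settle whether the replicate numbers pair the libraries. With the block, Ear2 was at -1.375 ± 0.30 (SE; edgeR unadjusted p = 0.00382, adjusted p = 0.101).

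Signs changed for Hoxc9, Epsti1, Slc36a2 and Tnfrsf9. Hoxc9 was at -0.16 with library totals (0.0076 relative to the median of all genes), -0.019 without the filter, -0.0039 with the replicate block, -0.48 relative to adipocyte markers, and between -0.074 and 0.093 with a library left out. Epsti1 was at 0.0019 with size factors by relative log expression, and between -0.59 and 0.25 with a library left out. Slc36a2 was at -0.10 relative to adipocyte markers, a scale that moves every gene by -0.475, and Tnfrsf9 between -0.99 and 0.26 with a library left out. Other values kept their sign, and the causes were not tested. Without vehicle replicate 2, 1423 genes had an unadjusted p under 0.05, against 3185 with all libraries. Depth limits Cited1, Tnfrsf9 and Tmem26.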

Other observations

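Among the P2X channels, P2rx7, an ATP receptor of immune cells, had 14.7, 13.95 and 9.54 CPM in estrogen replicates 1 to 3, against 15.8, 33.0 and 24.8 CPM in vehicle replicates 1 to 3, a log2 fold change of -0.94 ± 0.29 (SE). P2rx6 was at 0.67 ± 0.23 (SE), with all estrogen libraries above all vehicle libraries, as for 12.8% of all tested genes. Neither passed by edgeR (unadjusted p = 0.0141 and 0.0201) or DESeq2. Among the proton-coupled amino acid transporters, Slc36a1 was at -0.45 ± 0.19 (SE), with all estrogen libraries below all vehicle libraries. Such a separation below occurred for 14.7% of all tested genes.

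Among the T-box genes, Tbx18, a gene of mesenchymal and pericyte lineages, had 5.65, 5.83 and 3.69 CPM in estrogen replicates 1 to 3, against 9.60, 13.1 and 8.16 CPM in vehicle replicates 1 to 3. Its log2 fold change was -1.02 ± 0.27 (SE), which DESeq2 called (adjusted p = 0.0328) and edgeR did not (unadjusted p = 0.00691). The 6 progenitor and fibroblast markers were all negative, at a median log2 fold change of -1.15. In the Hoxc cluster, 7 of 9 genes were tested, 2 positive and 5 negative, with 0 at an unadjusted p under 0.05. Hoxc8 lay wholly above and Hoxc5 (-0.39 ± 0.17 SE) wholly below the vehicle libraries, as 12.8% and 14.7% of all tested genes did. Of the other paralogues in group 9, Hoxd9 was at 0.68 ± 0.31, Hoxb9 at -0.26 ± 0.39 and Hoxa9 at -0.07 ± 0.10 (SE).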
